A study of Mus musculus with 12 samples.

Results

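The 10 genes described here encode basement membrane proteins and were followed across pressure-loaded mouse ventricles: Col4a1, Col4a2, Col15a1, Col18a1, Lama2, Lama4, Lamb1, Lamc1, Nid1 and Hspg2. They were chosen by name, with earlier results of these data known. Each was represented by 1 probe set annotated to that gene alone, so all 10 of 10 were found among 19938 measured genes. The tissue was ventricle of male C57BL/6 mice. Right ventricles (RV) came from sham-operated mice at 3 weeks (age 15 weeks) and from mice whose pulmonary artery had been narrowed with a haemoclip (PAC) 1, 3 or 6 weeks earlier (ages 13, 15 and 18 weeks). Left ventricles (LV) came from sham-operated mice and from mice with a clip around the aorta (TAC), each at 3 weeks and 15 weeks of age. Each of the 6 groups held 2 arrays, 12 in all. The labels do not say whether the arrays of a group came from separate animals, and each p-value therefore reflects array-to-array spread that may be technical. Sham right ventricles were available at 3 weeks alone. At 1 and 6 weeks PAC and sham mice thus differ in age and in time since surgery as well. The 3 PAC comparisons share these sham RV arrays.

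The basement membrane is a thin sheet of matrix that surrounds each cardiomyocyte and underlies the endothelium of every vessel. Laminins, each a trimer of an alpha, a beta and a gamma chain, bind cell surface receptors and polymerise into one network. Type IV collagen, made of Col4a1 and Col4a2 chains in most tissues, forms a second network, and nidogen and the heparan sulfate proteoglycan perlecan (Hspg2) link the networks. Collagens XV and XVIII are proteoglycan collagens at the outer face of basement membranes, and their C-terminal fragments include endostatin, which is cut from collagen XVIII.

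Promoter sequences from RefSeq (build GRCm38.p6) are shown for 4 of the genes: the type IV collagen pair because these genes lie head to head, Nid1 as a member that rose, and Col18a1 as the member that did not pass in any comparison. The starts used for the promoter windows of Col4a1 (minus strand) and Col4a2 (plus strand) lie 21 bases apart, and the stretch chr8:11312801-11312830 holds both. That stretch is written on the plus strand, with the 22 bases from one start to the other in capitals. From these starts both transcripts cover the capitals, which are thus no gap between the genes. The gene coordinates of Col4a1 reach further, to chr8:11312889. For Nid1 (chr13:13437352-13437601, plus strand) and Col18a1 (chr10:77166531-77166780, minus strand, 1 of its 2 starts) the 250 bases before the start are given. Matches to CCAAT and to the GC box GGGCGG, on either strand, are in capitals.
Col4a1 and Col4a2: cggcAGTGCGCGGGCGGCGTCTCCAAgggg
Nid1: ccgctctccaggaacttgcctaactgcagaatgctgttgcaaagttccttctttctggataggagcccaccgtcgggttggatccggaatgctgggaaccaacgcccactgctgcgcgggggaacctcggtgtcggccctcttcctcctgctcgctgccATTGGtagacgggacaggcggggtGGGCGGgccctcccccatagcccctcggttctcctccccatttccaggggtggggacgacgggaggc
Col18a1: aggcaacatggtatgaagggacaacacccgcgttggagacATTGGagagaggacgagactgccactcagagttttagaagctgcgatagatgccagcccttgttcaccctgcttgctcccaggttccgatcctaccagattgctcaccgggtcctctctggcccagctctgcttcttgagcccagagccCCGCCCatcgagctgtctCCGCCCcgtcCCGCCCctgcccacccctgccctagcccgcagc
Of the 10 genes, 8 had a window of 300 bases around a start (250 before, 50 after), 9 windows in all because Col18a1 has 2. A GC box was found in 7 of the 9 windows, against 35.7% of 32851 windows of all genes. CCAAT was found in 5 of the 9, against 37.4% of all windows. The TATA box letters TATAAA were in 0 of the 9, against 13.6% of all windows. The Col4a1 and Col4a2 windows overlap by 78 bases, so a match can count for both, and these matches are a description of letters only. Nid1 and Col18a1, of which only the first passed in any comparison, both carried CCAAT and GC box letters in the windows shown. The other Col18a1 window (chr10:77113656-77113955) held 0 matches to either.

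Correlations between mates were 0.992 to 0.997 over all genes. Differences in level between genes make such values high, so they do not show how alike mates were. The largest difference between mates in a single gene ran from 1.18 after TAC to 4.27 at 3 weeks of PAC on the log2 scale. Cardiomyocyte markers (8 genes, among them Myh6, Tnnt2 and Actn2) had a mean level between 13.35 and 13.48 on every array. As a list of cardiomyocyte markers it does not tell ventricular from atrial muscle. On 3 arrays the mean of the atrial muscle markers exceeded that of the mate by over 1 on the log2 scale. The mean of 5 atrial markers (Myl7, Myl4, Sln, Bmp10 and Nppa) was 10.94 on PAC 1 week array 2 against 9.68, 10.16 on PAC 3 week array 2 against 8.74, and 9.42 on sham LV array 2 against 8.11. It was 8.51 and 8.99 at 6 weeks of PAC, 8.55 and 8.46 after TAC, and 7.53 and 6.83 in sham RV. Results are given with and without these 3 arrays, but the PAC arrays kept then, at 8.51 to 9.68, are still above sham RV in these markers, and PAC 1 week array 1 is above the sham LV array left out.

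After clipping of the pulmonary artery, 9 of the 10 basement membrane genes rose at 1 week, 6 at 3 weeks and 4 at 6 weeks, and none fell. Of all genes 9.57%, 3.22% and 5.52% rose at these times, and 8.86%, 2.54% and 3.73% fell. A fit to only the arrays compared left 0 of 10 at 1 week, where 0.446% of all genes passed. Type IV collagen rose at all 3 times, to about double the sham level at 1 week (Col4a1 1.96-fold, Col4a2 2.02-fold), and all 4 laminin chains rose at 1 week (Lama4 1.54-fold). Col18a1 did not pass at any time. In the left ventricle 3 weeks after aortic clipping the 10 genes lay higher on both TAC than on both sham arrays. This held for 18.2% of all genes, and none of the 10 passed the test, with 0% of all genes passing. Changes below are log2 differences ± standard error from limma, levels are log2 RMA values, and a gene passed where its p, adjusted by the Benjamini-Hochberg method over all 19938 genes, was under 0.05.

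**Figure D1:**
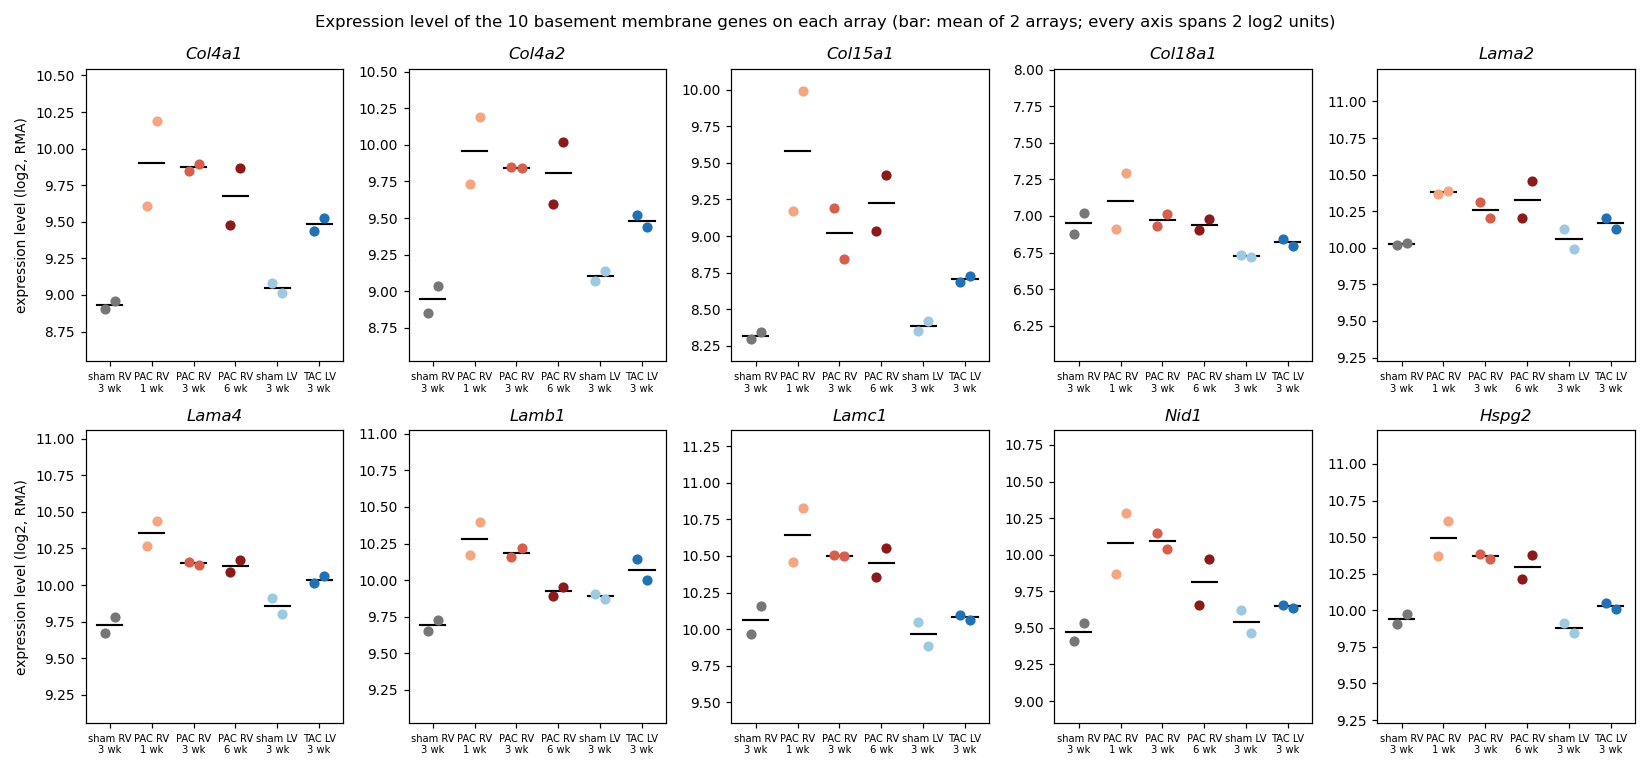
Expression level (log2, RMA) of each gene on every array, by group; points are single arrays and bars the mean of 2 arrays, and each axis spans the same range. For 9 genes all PAC right ventricles lie above both sham right ventricles, while Col18a1 overlaps.

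Col4a1 encodes the more abundant chain of the type IV collagen trimer. Its log2 level was 8.90 and 8.96 in sham right ventricle, 9.61 and 10.19 at 1 week of PAC, 9.85 and 9.90 at 3 weeks, and 9.48 and 9.87 at 6 weeks. In left ventricle it was 9.08 and 9.02 in sham and 9.44 and 9.53 after TAC. All PAC arrays were above all sham arrays, and the pair at 1 week was the most spread. The change against sham RV was 0.97 ± 0.17 at 1 week (adjusted p = 0.0104), 0.94 ± 0.17 at 3 weeks (adjusted p = 0.0252) and 0.74 ± 0.17 at 6 weeks (adjusted p = 0.0285). Ordered by mean level the groups ran PAC 1 week, PAC 3 weeks, PAC 6 weeks, TAC, sham LV and sham RV. Neighbours among the first 4 overlapped, while TAC and sham LV, and sham LV and sham RV, did not.

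Col4a2, the partner chain, followed nearly the same course. Its level was 8.85 and 9.04 in sham RV, 9.73 and 10.19 at 1 week, 9.85 and 9.84 at 3 weeks, and 9.59 and 10.02 at 6 weeks. It stood at 9.07 and 9.14 in sham LV and 9.52 and 9.44 after TAC. Here too every PAC array lay above every sham array of either chamber. The change was 1.02 ± 0.16 at 1 week (adjusted p = 0.00741), 0.90 ± 0.16 at 3 weeks (adjusted p = 0.025) and 0.86 ± 0.16 at 6 weeks (adjusted p = 0.0162). Over the 12 arrays the levels of Col4a1 and Col4a2 correlated with r = 0.98, a description in which the arrays share their groups.

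Col15a1, a proteoglycan collagen found near the basement membranes of muscle and capillaries, had the largest change of the 10 genes at 1 week. Its level was 8.29 and 8.34 in sham RV, 9.17 and 9.99 at 1 week, 9.19 and 8.84 at 3 weeks, and 9.04 and 9.42 at 6 weeks. The 1 week mates differed by more than those of any other group. The change was 1.26 ± 0.23 at 1 week (2.4-fold, adjusted p = 0.0107) and 0.91 ± 0.23 at 6 weeks (adjusted p = 0.0357). At 3 weeks it was 0.70 ± 0.23 and did not pass (adjusted p = 0.0805), although both arrays lay above both sham arrays. The left ventricle gave 8.35 and 8.42 in sham and 8.68 and 8.73 after TAC.

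Col18a1, the source of endostatin, showed a different picture, but its signal was weaker. Its mean level of 6.92 was at percentile 52.85 of all genes, while every other member was at percentile 84.08 or above. The median level of all genes was 6.74. Whether its weaker signal hides a change was not tested. Its level was 6.88 and 7.02 in sham RV, 6.91 and 7.30 at 1 week, 6.93 and 7.02 at 3 weeks, and 6.90 and 6.98 at 6 weeks. PAC and sham arrays overlapped at every time. The change was 0.15 ± 0.12 at 1 week (95% interval -0.11 to 0.41, adjusted p = 0.364), 0.02 ± 0.12 at 3 weeks (-0.24 to 0.29) and -0.01 ± 0.12 at 6 weeks (-0.27 to 0.25). These intervals leave room for an increase of up to 0.41 at 1 week. In left ventricle Col18a1 was 6.74 and 6.72 in sham and 6.84 and 6.79 after TAC, so that its lowest levels were in sham LV.

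Among the laminins, Lama2 encodes the alpha chain of cardiomyocyte laminin, whose loss causes a congenital muscular dystrophy. Its level was 10.02 and 10.03 in sham RV, 10.37 and 10.39 at 1 week, 10.32 and 10.21 at 3 weeks, and 10.20 and 10.46 at 6 weeks. The arrays did not overlap at any time, but the shifts were small. Lama2 rose by 0.35 ± 0.10 at 1 week (adjusted p = 0.0382), and stood at 0.23 ± 0.10 at 3 weeks (adjusted p = 0.15) and 0.30 ± 0.10 at 6 weeks (adjusted p = 0.0793) without passing. Lama4, the alpha chain of endothelial laminin, was at 9.67 and 9.78 in sham RV, 10.27 and 10.44 at 1 week, 10.16 and 10.14 at 3 weeks, and 10.09 and 10.17 at 6 weeks. The arrays of each PAC time were clear of sham, and the 1 week arrays were also above those of the later times. Lama4 rose at all 3 times, by 0.62 ± 0.09 (adjusted p = 0.00605), 0.42 ± 0.09 (adjusted p = 0.0333) and 0.40 ± 0.09 (adjusted p = 0.0273). In left ventricle Lama2 was 10.13 and 9.99 in sham and 10.20 and 10.13 after TAC, and Lama4 was 9.91 and 9.80 in sham and 10.01 and 10.06 after TAC.

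Lamb1 and Lamc1 encode the beta and gamma chains that pair with these alpha chains. Lamb1 was at 9.65 and 9.73 in sham RV, 10.17 and 10.39 at 1 week, 10.15 and 10.22 at 3 weeks, and 9.89 and 9.95 at 6 weeks. Its 6 week arrays overlapped those of sham LV (9.91 and 9.87). It rose by 0.59 ± 0.10 at 1 week (adjusted p = 0.00783) and 0.50 ± 0.10 at 3 weeks (adjusted p = 0.0283), and at 6 weeks the difference was 0.23 ± 0.10 (adjusted p = 0.138). Lamc1 was at 9.97 and 10.16 in sham RV, 10.46 and 10.83 at 1 week, 10.50 and 10.50 at 3 weeks, and 10.36 and 10.55 at 6 weeks. Its rise at 1 week was 0.58 ± 0.13 (adjusted p = 0.0183), and the later differences of 0.44 ± 0.13 (adjusted p = 0.065) and 0.39 ± 0.13 (adjusted p = 0.0764) did not pass. After TAC both Lamb1 arrays (mean 10.07 ± 0.10, SD, n = 2) were above its PAC 6 week arrays. Lamc1 was 10.05 and 9.89 in sham LV and 10.10 and 10.06 after TAC, where it overlapped sham RV.

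Nid1, which bridges laminin and type IV collagen, was at 9.41 and 9.53 in sham RV, 9.87 and 10.29 at 1 week, 10.15 and 10.04 at 3 weeks, and 9.66 and 9.97 at 6 weeks. It was the only one of the 10 genes whose highest group mean was at 3 weeks, though the 1 and 3 week arrays overlapped. Nid1 rose by 0.61 ± 0.14 at 1 week (adjusted p = 0.0222) and 0.62 ± 0.14 at 3 weeks (adjusted p = 0.0383), and stood at 0.34 ± 0.14 at 6 weeks (adjusted p = 0.139). Hspg2 was at 9.90 and 9.98 in sham RV, 10.37 and 10.61 at 1 week, 10.39 and 10.35 at 3 weeks, and 10.21 and 10.38 at 6 weeks. It rose by 0.55 ± 0.10 at 1 week (adjusted p = 0.0111) and 0.43 ± 0.10 at 3 weeks (adjusted p = 0.039), and at 6 weeks its 0.36 ± 0.10 just missed the threshold (adjusted p = 0.0503). Nid1 stood at 9.62 and 9.46 in sham LV and 9.65 and 9.64 after TAC, and Hspg2 at 9.91 and 9.84 and at 10.05 and 10.01.

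**Figure D2:**
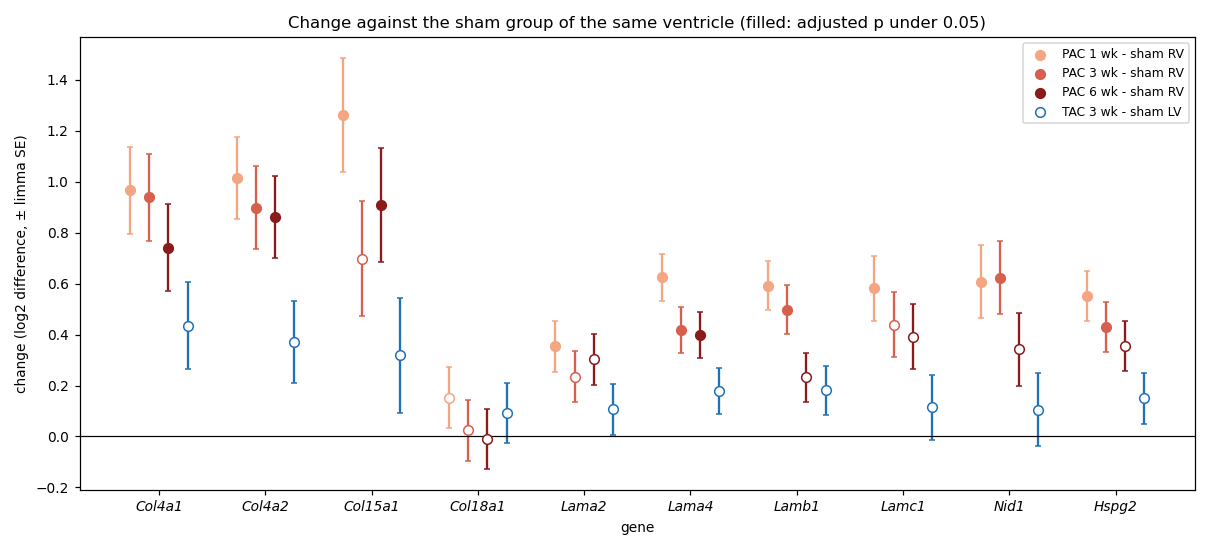
Change of each gene against the sham group of the same ventricle (log2 difference, bars are ± limma standard errors), with filled points for an adjusted p under 0.05. The 3 PAC times stand above the TAC points for 9 genes, and all TAC points are open.

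Read against the whole array, the counts stood as follows. The 10 genes were chosen with earlier results of these data known, so the comparison is a description and not a test. At 1 week of PAC 9 of 10 rose, where 9.57% of all genes rose, 8.86% fell and 18.4% passed in either direction. The median change of the 10 genes was 0.60 against -0.05 for all genes. At 3 weeks 6 of 10 rose, where 3.22% of all genes rose, 2.54% fell and 5.76% passed in either direction, with a median of 0.47 against -0.05. At 6 weeks 4 of 10 rose, where 5.52% of all genes rose, 3.73% fell and 9.25% passed in either direction, with a median of 0.37 against -0.05. Both arrays lay above both sham arrays for 9 of 10 genes at each time, against 26.4%, 25.5% and 26.0% of all genes at 1, 3 and 6 weeks. For the same 9 all 6 PAC right ventricles were above both sham right ventricles, which held for 16.8% of all genes. After cyclic loess scaling the count was 9 as well.

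These calls rest on few arrays. The share of all genes that passed also fell in the fits whose counts follow. The exception is 6 weeks without the 3 arrays that exceeded their mates in atrial markers. At 1 week 3 of 10 passed without PAC 1 week array 2 (Col4a2, Col15a1 and Lama4). Leaving out sham RV array 2 left 3 (Col4a2, Lama4 and Lamb1), and leaving out its mate left 6. A fit to only the arrays compared left 0 of 10 at 1 week, 6 at 3 weeks (Lama4 lost, Col15a1 gained) and 3 at 6 weeks. Of all genes 0.446%, 5.47% and 5.12% passed in that fit at 1, 3 and 6 weeks. At 3 weeks 0 passed without PAC 3 week array 2 or without either array of sham RV, and 3 passed without PAC 3 week array 1 or either TAC array. At 6 weeks 0 passed without PAC 6 week array 2 or without either array of sham RV. After cyclic loess scaling 7, 2 and 1 passed at 1, 3 and 6 weeks, where 10.9%, 2.68% and 6.41% of all genes passed. Without the 3 arrays that exceeded their mates in atrial markers 0 of 10 passed at 1 week and 0 at 3 weeks, where 0.883% and 0.0201% of all genes passed, with a median change of 0.46 at each time, and at 6 weeks 4 passed. In that fit 10.3% of all genes passed at 6 weeks. With each array left out in turn the median change was between 0.46 and 0.74 at 1 week, 0.43 and 0.53 at 3 weeks, and 0.28 and 0.47 at 6 weeks. With pairs of arrays, the smallest two-sided p of an exact permutation test is 0.33.

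From 1 to 6 weeks of PAC all 10 genes had a lower mean, with a median log2 change of -0.21 against 0.008 for all genes. None passed (0 of 10 by limma, 2 at an unadjusted p under 0.05, against 9.75% of all genes). Of all genes 0.0351% were higher, 0.0602% lower and 0.0953% passed in either direction. Lamb1 and Lama4 were the 2 genes whose arrays did not overlap between the times, both lower, which held for 17.2% of all genes. Lamb1 differed by -0.36 ± 0.10 (95% interval -0.57 to -0.15, adjusted p = 0.218) and Lama4 by -0.22 ± 0.09 (-0.42 to -0.02, adjusted p = 0.451). Col4a2 differed by -0.15 ± 0.16 (-0.51 to 0.21) and Lama2 by -0.05 ± 0.10 (-0.27 to 0.17). Without PAC 1 week array 2 the median difference was -0.02, and without PAC 1 week array 1 it was -0.38, with Lamb1 then passing.

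In left ventricle at 3 weeks of TAC, both TAC arrays exceeded both sham LV arrays for all 10 genes, which held for 18.2% of all genes and for all 10 after cyclic loess scaling too. None passed (0 of 10 by limma, 2 at an unadjusted p under 0.05 against 4.83% of all genes), and 0% of all genes passed in this comparison. The 2 were the type IV collagens, Col4a1 at 0.43 ± 0.17 (95% interval 0.06 to 0.81, adjusted p = 0.985) and Col4a2 at 0.37 ± 0.16 (0.02 to 0.73). Col15a1 stood at 0.32 ± 0.23 (-0.18 to 0.82) and Lamb1 at 0.18 ± 0.10 (-0.03 to 0.40). The median of the 10 genes was 0.16 against -0.02 for all genes.

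Sham right and left ventricles were compared next, though the labels do not say whether they came from the same hearts, and the fit treats them as separate samples. None passed (0 of 10 by limma, 0 at an unadjusted p under 0.05 against 20.7% of all genes). Of all genes 0.0752% were higher in sham RV, 0.336% lower and 0.411% passed in either direction. Both sham RV arrays were above both sham LV arrays for 1 gene and below for 5, against 29.3% and 26.1% of all genes. Lamb1 was lower in sham RV by -0.20 ± 0.10 (95% interval -0.41 to 0.01, adjusted p = 0.271) and Col18a1 stood higher by 0.22 ± 0.12 (-0.04 to 0.48, adjusted p = 0.311). The median difference was -0.07, and 0.04 after cyclic loess scaling, so no direction can be given for the group.

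The responses of the chambers at 3 weeks were compared directly as the PAC change less the TAC change. None of the genes passed (0 of 10 by limma, 3 at an unadjusted p under 0.05 against 11.9% of all genes; 0% of all genes passed). The 3 were Nid1, with 0.52 ± 0.20 (95% interval 0.07 to 0.97, adjusted p = 0.392), Col4a2, with 0.53 ± 0.23 (0.02 to 1.03, adjusted p = 0.411), and Lamb1, with 0.31 ± 0.14 (0.01 to 0.62, adjusted p = 0.411). Col4a1 stood at 0.51 ± 0.24 (-0.03 to 1.04) and Col18a1 at -0.07 ± 0.17 (-0.44 to 0.30). The 9 genes other than Col18a1 had a larger PAC than TAC change, with a median over all 10 of 0.32 against -0.02 for all genes. The 10 genes correlate with one another, so this count of directions is a description and not a test.

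The 10 genes varied together. Over the 12 arrays the 45 pairwise correlations ran from 0.51 to 0.99 with a median of 0.89, and Lamc1 with Hspg2 gave the highest, r = 0.99. Col18a1 stood lowest, with a median of 0.65 against the other 9 genes, and Lamb1 next with 0.78. After the group means were removed, the median over pairs was still 0.83 (range 0.20 to 0.99, 6 degrees of freedom). Mates lay furthest apart at PAC 1 week (mean of the 10 genes 9.69 and 10.06) and PAC 6 weeks (9.54 and 9.78). These few arrays weigh most in that value, and no such value was computed for all genes. These are descriptions over arrays that share groups and normalization. The genes most like Col4a1 over the arrays were Sparc (r = 0.99), a matrix protein that binds type IV collagen, then Dchs1, Fstl1, Septin11 and Igfbp7 (each r = 0.98). Those most like Lama2 were Cpd and Wwtr1 (r = 0.95), Eif2ak3 (r = 0.94), and Natd1 and Trip12 (r = 0.93).

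Other genes of the basement membrane were read from fixed lists, chosen with earlier results of these data known. Beside the counts of each list, 9.57%, 3.22% and 5.52% of all genes rose at 1, 3 and 6 weeks of PAC. No list was tested as a set. Of 12 measured further type IV collagen, laminin, nidogen and agrin genes, 2 rose at each PAC time and 0 fell, with medians of -0.12, -0.04 and -0.01. Nid2, the second nidogen, rose at all 3 times: its mean level was 7.45 ± 0.06 (SD) in sham RV and 8.42 ± 0.32 at 1 week, and the changes were 0.97 ± 0.13 (adjusted p = 0.00431), 0.53 ± 0.13 (adjusted p = 0.0436) and 0.59 ± 0.13 (adjusted p = 0.026). Col4a5, an alternative type IV chain, rose at 1 week (0.50 ± 0.11) and 6 weeks (0.43 ± 0.11), and Agrn, the proteoglycan agrin, at 3 weeks (0.47 ± 0.10). The other 9 did not pass at any time, and 2 of them are named here after their values were seen. Lamb2, the beta chain of mature muscle laminin, stood at 0.01 ± 0.09, -0.04 ± 0.09 and 0.00 ± 0.09, and Lama5 at -0.31 ± 0.14, -0.11 ± 0.14 and -0.21 ± 0.14. In a fit to only the arrays compared, Nid2 and Col4a5 lost their calls at 1 week, where 0.446% of all genes passed. Agrn at 3 weeks and Col4a5 at 6 weeks lost theirs in that fit too. After cyclic loess scaling Nid2 and Agrn did not pass at 3 weeks. The Nid2 call at 1 week was kept without each of the 12 arrays in turn, while at 3 weeks Nid2 kept it in 4 of 12 omissions and Agrn in 5 of 12. Col4a5 kept its call in 9 of 12 omissions at 1 week and in 3 of 12 at 6 weeks, where it was also lost after loess scaling. Without the 3 arrays that exceeded their mates in atrial markers Nid2 still passed at 1 and 6 weeks and Col4a5 at 6 weeks, and the other calls of this list were lost.

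Of 12 proteins that associate with basement membranes, 3 rose at 1 week, 1 at 3 weeks and 1 at 6 weeks, and 0 fell. Of all genes 9.57%, 3.22% and 5.52% rose at these times and 8.86%, 2.54% and 3.73% fell. These shares stand beside the receptor counts as well, and in lists this short a count of 1 is a description only. Sparc rose at every time, from 10.85 ± 0.08 in sham RV to 12.18 ± 0.51 at 1 week, with changes of 1.33 ± 0.20, 1.10 ± 0.20 and 0.84 ± 0.20 (adjusted p = 0.00724, 0.0252 and 0.033). Pxdn, peroxidasin, which forms the sulfilimine cross-links of type IV collagen, rose at 1 week by 0.85 ± 0.11 (adjusted p = 0.00342) and stood at 0.00 ± 0.11 at 6 weeks. Frem2 rose at 1 week (0.59 ± 0.12, adjusted p = 0.0147). Of 10 receptors, 3 rose at 1 week, 2 at 3 weeks and 1 at 6 weeks, and 1 fell at 6 weeks. Itga6, the alpha chain of a laminin-binding integrin, rose at all times, by 0.71 ± 0.09, 0.72 ± 0.09 and 0.77 ± 0.09 (adjusted p = 0.00342, 0.0166 and 0.00533). Its partner Itgb1 (0.41 ± 0.10) and the collagen receptor Ddr1 (0.59 ± 0.12) rose at 1 week, Itga1, of a collagen IV-binding integrin, at 3 weeks (0.38 ± 0.09). Bcam, a receptor for laminins with the alpha 5 chain, fell by 0.45 ± 0.10 at 6 weeks (adjusted p = 0.0273). Of these calls Itga1 was kept in 4 of 12 omissions and Sparc at 6 weeks in 7 of 12, and the others in 9 or more. Without the 3 arrays that exceeded their mates in atrial markers Pxdn still passed at 1 week and Sparc, Itga6 and Bcam at 6 weeks, while Sparc and Itga6 at 1 and 3 weeks, Frem2, Itgb1 and Ddr1 at 1 week and Itga1 at 3 weeks were lost. None of these related genes passed after TAC. In a fit to only the arrays compared, all calls of these proteins and receptors at 1 week were lost. Itga1 at 3 weeks and Bcam at 6 weeks were lost in that fit as well. After cyclic loess scaling Itga1 at 3 weeks and Sparc at 6 weeks did not pass.

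**Figure D3:**
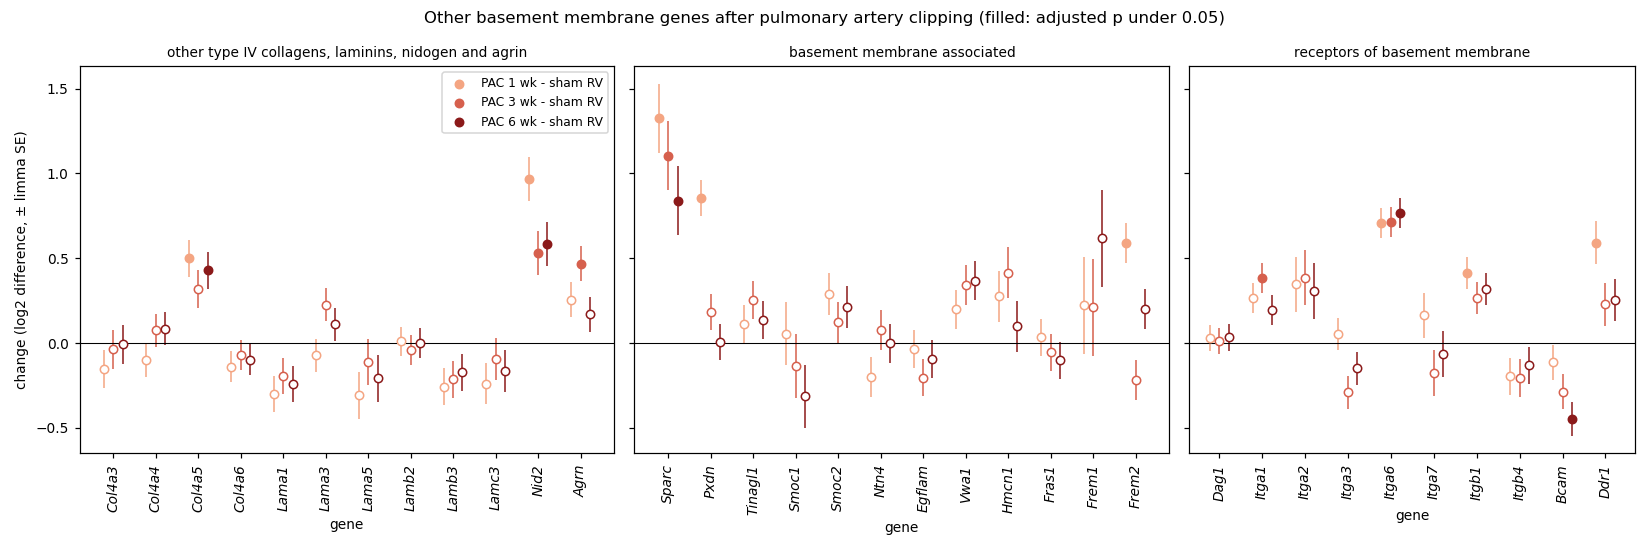
Changes of other basement membrane genes against sham right ventricle at 1, 3 and 6 weeks of PAC (log2 difference, bars are ± limma standard errors; filled points have an adjusted p under 0.05). Nid2, Sparc and Itga6 are filled at all 3 times, and most other genes are open.

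Markers of other cell types are given beside these changes. Of all genes 9.57%, 3.22% and 5.52% rose at 1, 3 and 6 weeks of PAC, and the marker lists were not tested as sets. The atrial list moved most: 5, 2 and 1 of its 5 genes rose at 1, 3 and 6 weeks, with median changes of 3.12, 2.49 and 2.08. Fibroblast markers (9 genes, with Col1a1, Dpt and Pdgfra among them) had a mean level of 9.35 to 9.36 in sham RV. It was 10.13 to 10.90 at 1 week, 10.37 to 10.48 at 3 weeks and 9.96 to 10.42 at 6 weeks. At these times 6, 5 and 2 of the fibroblast markers rose, but Dpt and Pdgfra did not pass at any time. At 1 week 8 of the 9 changes were above 0, and Dcn stood at -0.12 ± 0.10. Endothelial markers (10 genes) stood at 9.50 to 9.56 in sham RV and 9.78 to 9.80, 9.83 to 9.97 and 9.70 to 9.75 at the PAC times. Of these 4 rose at 1 week, 5 at 3 weeks and 0 at 6 weeks (limma, 4 at an unadjusted p under 0.05), with median changes of 0.31, 0.37 and 0.18 at 1, 3 and 6 weeks. Pericyte and smooth muscle markers (11 genes) stood at 9.03 to 9.11 in sham RV and 9.13 to 9.23, 9.43 to 9.43 and 9.28 to 9.41, with 2, 5 and 4 rising. At 1 week 5 of these 11 had a change below 0, and the median was 0.08. Of 8 macrophage markers 5 rose at 1 week, and their mean level was 8.67 to 8.71 in sham RV, 9.03 to 9.65 at 1 week, 8.88 to 9.07 at 3 weeks and 8.71 to 8.77 at 6 weeks. Of 5 mesothelial markers 1 rose at 1 week, and the median change was 0.50 at 1 week, -0.17 at 3 weeks and -0.73 at 6 weeks. These counts also rest on few arrays: with each array left out in turn, 1 to 7, 0 to 6 and 0 to 5 fibroblast markers rose at the 3 times. The range was 0 to 5, 0 to 6 and 0 to 1 for endothelial markers, 0 to 3, 0 to 6 and 0 to 5 for pericyte and smooth muscle markers, 0 to 5, 0 to 3 and 0 to 2 for atrial markers, and 0 to 8 for macrophage markers at 1 week. In these whole-tissue samples a greater number of cells of a type cannot be told apart from more RNA per cell, and the part of cell composition in the changes was not tested. The PAC 1 week array highest in the 10 genes (mean 10.06 against 9.69 on its mate) was also the higher in fibroblast, macrophage and atrial markers, but not in endothelial markers (9.78 against 9.80).

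**Figure D4:**
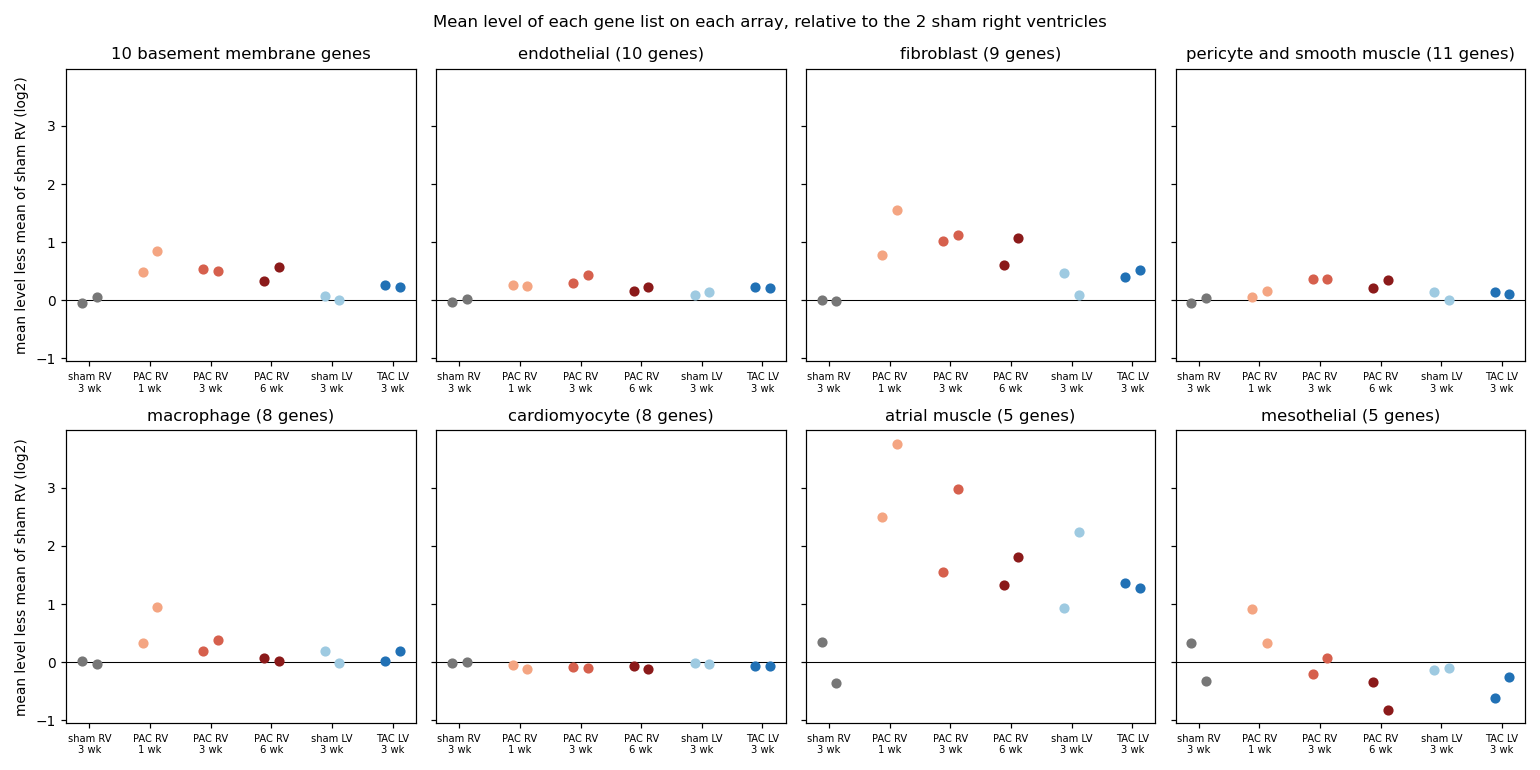
Mean level of the 10 genes and of 7 marker lists on each array, less the mean of the 2 sham right ventricles (log2). The basement membrane genes and the fibroblast, endothelial and pericyte markers lie above sham on all PAC arrays, while cardiomyocyte markers stay near 0 and atrial markers spread most.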

How the data were processed

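RNA from 12 ventricle samples was hybridised to Affymetrix whole-transcript arrays. The authors deposited log2 expression values made with RMA in Affymetrix Power Tools, per the submitters' processing notes; the version, library files and genome build are not stated there. No scaling was added to these log2 values. Of 35556 probe sets, 21789 carried 1 gene, 1621 several and 12146 none in the annotation table; where a gene had several probe sets, the one with the highest mean was kept, giving 19938 genes. Linear models with 6 group means were fitted over the 12 arrays in limma 3.58.1 under R 4.3.3 (6 residual and 4.6 prior degrees of freedom), with 7 comparisons, and p-values were adjusted by Benjamini-Hochberg over all genes. The code was tested on simulated data. The 10 members, the related lists and the marker lists were chosen with earlier results of these data known. All 10 members are named; of related lists, those that passed, with Lamb2, Lama5 and the genes of the closing section (Col4a4, Tinagl1, Itga7) added after their values were seen; and the 5 genes most correlated with Col4a1 and with Lama2. Sequences are from RefSeq. Precision is limited by 2 arrays per group. Alternatives were loess scaling, the mean over probe sets, a filter at the median level (6.74), another variance prior, only the arrays compared, a replicate block and each array left out.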

Additional observations from a re-analysis of the deposited data

Results flagged for a closer look

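None of the 10 members, and 5 related genes, met a condition for differing between times or chambers: a difference that passed its test, or arrays that moved opposite ways. Pxdn differed between times by a test: its level at 6 weeks of PAC was below that at 1 week by -0.85 ± 0.11 (limma adjusted p = 0.0391), lower on both arrays, and this call was kept in 2 of 12 omissions of an array. The Pxdn call was lost in a fit to only the arrays compared, and without the 3 arrays that exceeded their mates in atrial markers. With each array left out in turn the Pxdn difference was between -0.99 and -0.71. For the other flagged genes all arrays of one group lay above and all of the other below their sham arrays. Frem2 was higher than sham RV at 1 week and lower at 3 weeks, changes that differ by 0.81, a difference that was not tested. Col4a4 was lower at 1 week and higher at 3 and 6 weeks, by 0.17 and 0.18 more than at 1 week; the first was not tested and the second did not pass (limma adjusted p = 0.607). Tinagl1 was higher after PAC and lower after TAC at 3 weeks, a difference of 0.31 (limma adjusted p = 0.441), and Itga7 the reverse, -0.27 (adjusted p = 0.558).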

How the results depend on the processing

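The members' median change kept its sign in each PAC and TAC comparison with sham under every alternative run. With loess scaling 2 of 10 passed at 3 weeks and 1 at 6 weeks of PAC. The percent of all genes passing was then 10.9 at 1 week, 2.68 at 3 weeks and 6.41 at 6 weeks. With only genes at or above the median level 7 passed at 6 weeks, and the percent of all genes was 15.9 at 3 weeks, 24.4 at 6 weeks, 0.321 for 6 weeks against 1 week and 8.74 for sham RV against sham LV. With the trended and robust prior 7 passed at 6 weeks, where 11.7% of all genes passed. In that fit the percent was 0.416 for 6 against 1 week and 3.63 between shams. With only the arrays compared 0 of 10 passed at 1 week, with 0.446% of all genes. In that fit 6 and 3 members passed at 3 and 6 weeks, with 5.47% and 5.12% of all genes. The percent was 0.00502 for 6 against 1 week, 0.0301 between shams and 0.01 for PAC less TAC. The cause of these counts was not tested. Without the 3 arrays that exceeded their mates in atrial markers, an alternative chosen after seeing the data, 0 members passed at 1 week (median 0.46, 0.883% of all genes) and 0 at 3 weeks (0.0201%), the median for 6 against 1 week was -0.023 (0.0251%), and 0.01% passed between shams.

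With each array left out in turn, members that passed ranged from 3 to 9 at 1 week, 0 to 8 at 3 weeks, 0 to 6 at 6 weeks and 0 to 1 for 6 against 1 week, and were 0 elsewhere. Median changes ranged from 0.46 to 0.74, 0.43 to 0.53, 0.28 to 0.47 and -0.38 to -0.023 in that order, 0.12 to 0.20 for TAC, -0.11 to -0.03 between shams and 0.26 to 0.38 for PAC less TAC. The percent of all genes ranged from 1.14 to 22.9, 0.015 to 10.4, 0.015 to 13.3 and 0.00502 to 2.45, 0 to 0.00502 for TAC, 0 to 1.26 between shams and 0 to 0.015 for PAC less TAC.

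Deviations of same-numbered arrays from their group means correlated between groups from -0.24 to 0.37 (15 correlations, median 0.02, 5 above 0.1). With 2 arrays per group these values cannot tell whether arrays of 1 number share a batch. The 3 arrays that exceeded their mates in atrial markers all carry the number 2. The labels do not say what a number shares, so the numbers were not taken as pairs. With a replicate block 9, 6 and 4 members passed at 1, 3 and 6 weeks, as without it, and the percent of all genes was 18.9, 6.96 and 9.74, and 0.0552 for 6 against 1 week. A slide block was not run, since no slide is given in the labels. With 2 arrays per group the array number limits precision.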
